A study of Saccharomyces cerevisiae with 4 samples.

Results

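The response to rapamycin of a budding yeast strain labelled ptc1, a mutant name of the gene for the protein phosphatase Ptc1, was read from its 2 arrays. Each array compared rapamycin-treated with mock-treated cells. Of 6176 genes in the table, 5221 had a value on both ptc1 arrays and are described here, 220 had a value on 1 array only and 735 on none. The ptc1 cells of Saccharomyces cerevisiae grew in YPD rich medium at 28 °C to an absorbance at A660 of 0.5, and were then given rapamycin at 200 ng/ml for 1 h or a vehicle of 90% ethanol and 10% Tween-20. A wild-type strain, grown and treated in the same way, had 2 arrays of its own and serves as the comparison. No source used here gives the allele, the strain background or the number of clones. Since the design describes dye swaps, the 2 arrays of each strain were treated as readings of 1 RNA pair, with no replicate culture, and no test was run.

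Rapamycin, bound to the immunophilin Fpr1, inhibits TORC1, the kinase complex through which yeast couples growth to its supply of nitrogen. Active TORC1 keeps ribosome production high and holds back genes for poor nitrogen sources, stress defence and autophagy. Ptc1 is a type 2C phosphatase best known for acting on the kinases of the high-osmolarity glycerol (HOG) and cell wall integrity pathways.

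All values are log2 ratios, with rapamycin above mock when positive. The table states neither the log base nor the direction, and the direction is likely because genes long known to be repressed by good nitrogen sources have positive values. Rose and fell mean here that both arrays had the same sign and that their mean was 1 or more in size, a change of 2-fold. The ± is the SD of the 2 arrays and carries technical spread alone. Ratios were scaled within each array, so they give shares of the labelled RNA, and a change in total RNA per cell could not be read from them. The wild-type arrays held 4796 genes measured on both, of which 13.8% rose and 15% fell, and 4650 genes had a value on all 4 arrays. PTC1 had no value on either ptc1 array and 0.00 and −0.53 in the wild type, so its own level could not be used to check the genotype.

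Rapamycin raised 551 genes in ptc1 cells, 10.6% of those measured, and lowered 647, or 12.4%. The falls reached further: 280 genes fell at least 4-fold against 110 that rose as much, 109 against 25 passed 8-fold and 8 against 3 passed 16-fold. The means ran from −4.79 for RPS22A, a protein of the small ribosomal subunit, to 4.77 for GAP1, the general amino acid permease, with a median of 0.08 over all genes. Many calls lay close to the threshold, since 93 rises and 54 falls had a mean under 1.1 in size, and a further 190 genes lay between 0.9 and 1. With each array required to pass 1 on its own, 382 rises and 513 falls were left.

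**Figure D1:**
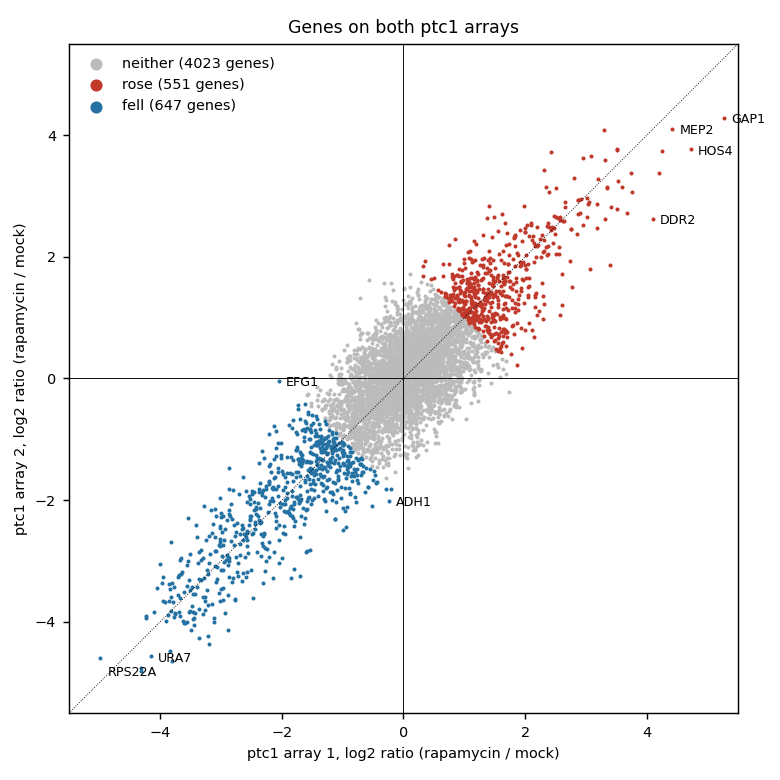
Log2 ratio of rapamycin over mock on ptc1 array 1 (x axis) against ptc1 array 2 (y axis), 1 point per gene, coloured by call; the dotted line marks equal values. The arrays correlated with r = 0.861 across 5221 genes, GAP1 stands at the upper right and RPS22A at the lower left.

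The arrays of the ptc1 strain correlated with Pearson's r = 0.861 and Spearman's rho = 0.749 across the 5221 genes, which share the same RNA pair and are not independent. The median SD of a gene was 0.28, against 0.15 on the wild-type arrays, and in 1 gene in 10 it was above 0.67. Some calls rested on 1 array. EFG1, a nucleolar factor of ribosome maturation, read −2.05 and −0.04 on arrays 1 and 2. ADH1, the main alcohol dehydrogenase of fermentation, read −0.24 and −2.01. SSN3, the kinase of the Mediator complex that links transcription factors to RNA polymerase II, read 1.87 and 0.22. Among genes with no call, opposite signs were found for the open reading frames YGL109W, at −0.56 and 1.62, and YGL108C, at −0.32 and 1.57. They were also found for LSM8, an RNA-binding protein of splicing, at −0.72 and 1.32, and NHX1, an endosomal sodium exchanger, at 1.73 and −0.21. CHM7, EUG1 and GPI15 also had opposite signs on the 2 arrays.

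Uptake and breakdown of poor nitrogen sources led the rises. GAP1 read 5.26 and 4.28, a mean of 4.77 ± 0.69 or 27.4-fold, and MEP2, the high-affinity ammonium permease, read 4.42 and 4.10, or 19.1-fold. DAL5, the allantoate permease, read 4.25 and 3.73, and DAL3, an enzyme of allantoin breakdown, 3.29 and 4.08. PUT1, the proline oxidase that starts proline use, read 3.76 and 3.07, and DAL7, a malate synthase of the same allantoin regulon, 3.34 and 3.13. Every one of these values was positive on both arrays and more than 8-fold in the mean. Of 43 measured targets of nitrogen catabolite repression, the shut-off of such genes while good nitrogen is present, 32 rose and none fell, with a median of 1.77. Their positive sign was also the ground for the direction given to the ratios, so it is no separate check of that direction. GAT1, the GATA activator of these genes, rose with 1.43 and 1.39, and UGA3, the activator of the genes for use of the amino acid GABA, with 1.83 and 1.85.

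Several of the 30 largest rises came from other functions. HOS4, a subunit of the Set3 histone deacetylase complex, read 4.73 and 3.77, or 19.0-fold. It was the only riser among 57 measured genes for chromatin remodelling and histone modification, whose median was 0.06. The histone deacetylase HOS3 was the only faller of that list, at −1.18 and −1.86. YAT2, a carnitine acetyltransferase, read 4.21 and 3.38, SNZ1, a vitamin B6 synthesis protein, 3.50 and 3.78, and GPG1, a subunit associated with the glucose-sensing G protein, 3.51 and 3.75. NQM1, a transaldolase, read 3.31 and 3.59. Further down the ranking came TMT1, trans-aconitate methyltransferase, at 3.37 ± 0.41, MCH4, a protein related to monocarboxylate transporters, at 3.14 ± 0.51, ALT1, an alanine transaminase, at 3.11 ± 0.43 and GCY1, a glycerol dehydrogenase, at 2.96 ± 0.12. AIM17, HAB1, FMP23, MOH1 and ARO5 completed the unlike set, with means from 2.93 for ARO5 to 3.24 for HAB1. The arrays were furthest apart in this group for DDR2, a stress protein, at 4.10 and 2.63, and for MOH1, at 2.43 and 3.73.

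**Figure D2:**
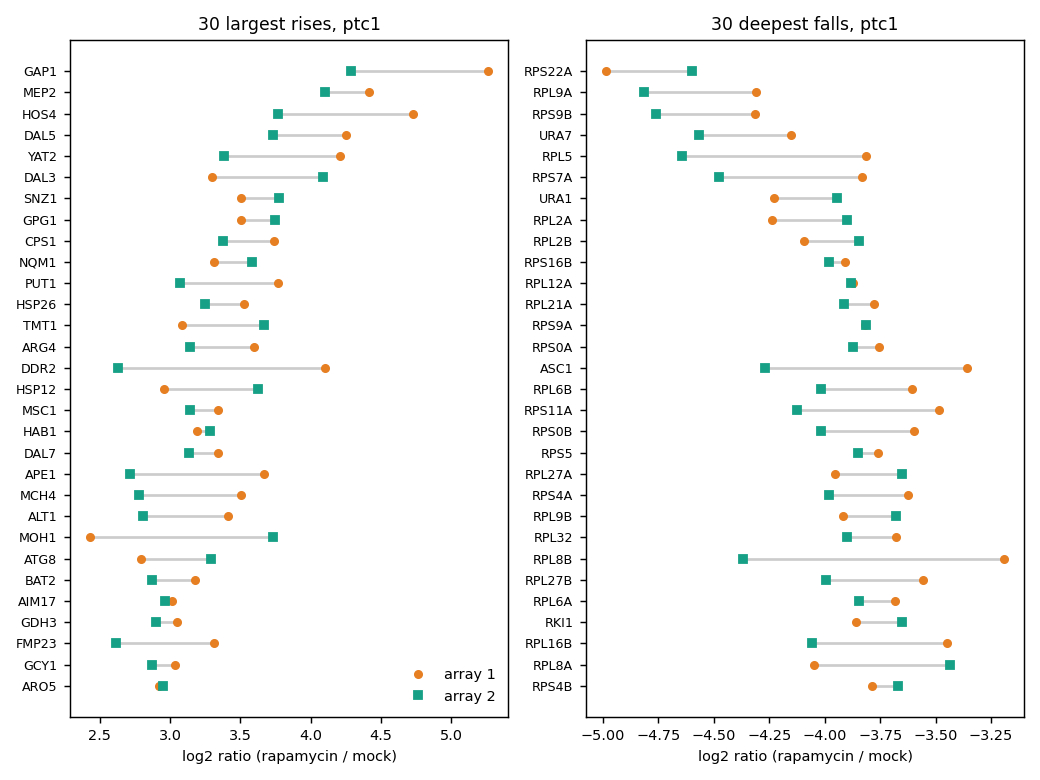
Log2 ratio of rapamycin over mock on array 1 (circles) and array 2 (squares) for the 30 largest rises and 30 deepest falls of ptc1, ordered by mean; the x axes differ and do not start at 0. The rises run from GAP1 to ARO5 and the falls from RPS22A to RPS4B, and the line between the symbols is the spread of the arrays.

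Ribosomal protein genes made up 27 of the 30 deepest falls, and the others were URA7, URA1 and RKI1. RPS22A read −4.99 and −4.60, or 27.7-fold lower, RPL9A −4.31 and −4.82, or 23.6-fold lower, and RPS9B −4.31 and −4.76. URA7, a CTP synthase, read −4.15 and −4.57, and URA1, dihydroorotate dehydrogenase, read −4.23 and −3.94. RKI1, ribose-5-phosphate isomerase, read −3.86 and −3.65, a mean of −3.76 ± 0.15. Its wild-type mean was −3.23, a strain difference of −0.525, which is under 1 in size and was not counted as a difference. All 50 measured small-subunit genes fell, with a median of −3.43, and 74 of 76 large-subunit genes, with a median of −3.34. The 2 without a call were RPL41A, at −1.35 and −0.52, and RPL31B. Over genes on all 4 arrays, the small-subunit medians were −3.43 in ptc1 and −3.62 in the wild type. The large-subunit medians were −3.38 and −3.69, so both lists fell slightly less in ptc1, unlike RKI1. Many ribosomal protein genes are near-identical pairs that a spotted probe may not tell apart, so the value of a single copy is uncertain.

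Among 49 ribosomal protein pairs with both copies measured, the copies differed by a median of 0.28, and by at least 1 in 8 pairs. RPL31A stood at −3.41 while RPL31B stood at −0.22, the widest gap. RPL17A lay at −1.87 and RPL17B at −3.66, RPS29A at −1.28 and RPS29B at −3.08, and RPS18A at −3.21 and RPS18B at −1.59. RPL22A (−3.57) was lower than RPL22B (−1.96), and RPS7A (−4.15) was lower than RPS7B (−2.88). The gap had the same sign on both arrays in each of these 6 pairs. Mitochondrial ribosomal proteins had 1 rise and 1 fall among 64 measured genes and a median of −0.09. The riser was KGD4, at 0.79 and 1.27, which is now annotated as a subunit of ketoglutarate dehydrogenase, and the faller was MRPL40, at −0.62 and −1.47.

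Assembly of the ribosome fell with its proteins. Of 53 measured genes of the small-subunit processome, the nucleolar complex that matures the small-subunit RNA, 42 fell with a median of −2.01, and of 71 large-subunit assembly genes 55 fell with a median of −1.88. NOP56, a core protein of the snoRNPs that methylate ribosomal RNA, read −3.71 and −3.55, and KRE33, the acetyltransferase of ribosomal RNA, read −3.20 and −3.03. BRX1, NOP7 and MAK21, which act on the large-subunit precursor, lay at −3.54 ± 0.39, −3.31 ± 0.35 and −3.28 ± 0.38. RNA polymerase I, which transcribes ribosomal RNA, had 6 fallers of 16 and a median of −0.63. Within it RPA43 read −3.33 and −3.31 and RPA135 −3.10 and −3.08, while the median showed that most subunits lay nearer 0. RNA polymerase III with its factor TFIIIC had 6 of 17 lower, led by RPC31 at −2.33 and −1.91 and the largest subunit RPO31 at −1.83 and −1.85. RNA polymerase II had 2 of 10 lower, RPB5 and RPO26, and both encode subunits shared by all 3 polymerases. RAP1, an activator at ribosomal protein promoters, fell with −1.35 and −0.97, and TOD6, a repressor of ribosome biogenesis genes, fell with −2.63 and −2.46.

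The rest of the translation apparatus fell too, with list medians nearer 0. Of 28 initiation factor genes 19 fell (median −1.19), led by the eIF3 subunits PRT1, at −2.03 and −2.11, and NIP1, at −1.82 and −2.15. Elongation and termination factors had 14 of 16 lower (median −1.38), with YEF3, the fungal elongation factor, at −3.01 and −2.75 and STM1, a ribosome-binding preservation factor, at −2.56 and −2.66. Of 22 cytosolic tRNA synthetase genes 14 fell (median −1.22), among them the methionyl enzyme MES1 at −1.94 and −2.06. Of 40 genes that modify or process tRNA 20 fell and none rose. TRM8, of the tRNA guanosine methyltransferase, read −2.27 and −2.78, LHP1, the yeast La protein, −2.52 and −2.30, and TRM1, a dimethyltransferase, −2.03 and −2.05. Traffic through the nuclear pore was represented by 45 pore and karyopherin genes, of which 6 fell, a share of 13.3% that is close to the 12.4% of all genes, and 1 rose. KAP123, the importin for many ribosomal proteins, read −2.42 and −2.12, and LOS1, the tRNA exporter, −1.29 and −0.97. GSP2, a Ran GTPase, rose in the same list at 1.75 and 1.5 while its near-identical copy GSP1 read −0.44 and −1.70.

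RNA turnover and splicing genes fell at shares of 8.89% and 11.1%, against 12.4% of all genes. Of 45 splicing genes 5 fell and 1 rose, and the deepest falls, PRP43 at −2.97 ± 0.18 and SNU13 at −2.83 ± 0.27, are in proteins that also serve ribosome assembly. Of 45 genes for mRNA decay and the exosome 4 fell, led by MTR4, the helicase of the nuclear exosome, at −3.08 and −2.83. EDC2, a decapping enhancer, rose at 1.29 and 1.97, and CTH1, an mRNA-binding protein of iron limitation, at 1.67 and 0.75.

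Amino acid synthesis did not move as a block. Arginine and ornithine synthesis had 8 of 13 members higher and none lower (median 1.61), with ARG4, argininosuccinate lyase, at 3.60 and 3.14 and ARG1, argininosuccinate synthetase, at 3.39 and 1.86. CPA1, of carbamoyl phosphate synthetase, read 2.29 and 2.09. Histidine synthesis had 3 of 6 higher and 1 lower. Lysine synthesis had 1 of 10 higher, LYS1 at 2.14 and 2.23, and 1 lower, LYS4 at −0.88 and −1.45. Each is a share of 10%, near the 10.6% of all genes that rose and the 12.4% that fell. Branched-chain synthesis had 5 of 12 lower and 2 higher. Its regulator LEU3 fell to −2.85 ± 0.12, the acetohydroxyacid reductoisomerase ILV5 read −1.71 and −2.0, and LEU1 −1.61 and −1.37, while LEU4, which opens the leucine branch, read 1.86 and 0.91. In methionine and sulfur metabolism 4 of 29 rose (13.8%) and 5 fell (17.2%), against 10.6% and 12.4% of all genes. MET28, a regulator of sulfur genes, read 1.92 and 2.44, and SAM1, S-adenosylmethionine synthetase, read −2.09 and −2.34. GCV2, a subunit of glycine decarboxylase, read 2.01 and 2.02, and MIS1, which makes mitochondrial folate derivatives, −2.06 and −1.53.

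Nucleotide synthesis fell in part. Of 22 purine genes 9 fell and none rose, led by GUA1, GMP synthase, at −3.26 and −3.66 and the IMP dehydrogenases IMD4, at −3.21 on both arrays, and IMD3, at −2.36 and −2.12. Of 16 pyrimidine genes 7 fell and 3 rose. Besides URA7 and URA1, the uridine permease FUI1 and the uracil permease FUR4 fell, to −1.54 ± 0.37 and −1.51 ± 0.06. The risers were YNK1, nucleoside diphosphate kinase, at 1.49 and 1.58, URA10, at 1.40 and 1.34, and CDD1, cytidine deaminase, at 0.98 and 1.18.

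Permeases outside the nitrogen-repressed class moved in both directions, with 4 of 21 higher and 4 lower. Each is a share of 19.0%, against 10.6% of all genes that rose and 12.4% that fell. The risers VBA1 (2.0 and 1.86), AVT6 (1.66 and 1.36) and AVT7 (1.23 and 1.33) are vacuolar transporters, and AGP2 (1.27 and 1.61) is a plasma membrane regulator of transport. The fallers TAT1 (−2.24 and −2.80), BAP3 (−1.23 and −1.43), MUP1 (−1.37 and −1.05) and MMP1 (−0.77 and −1.59) are plasma membrane permeases for amino acids or S-methylmethionine. Among 21 multidrug transporters 4 rose (19.0%), led by FLR1 at 1.17 and 1.34. AQR1 and AZR1 fell, to −1.33 ± 0.18 and −1.16 ± 0.04, a share of 9.52% that is below that of all genes.

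**Figure D3:**
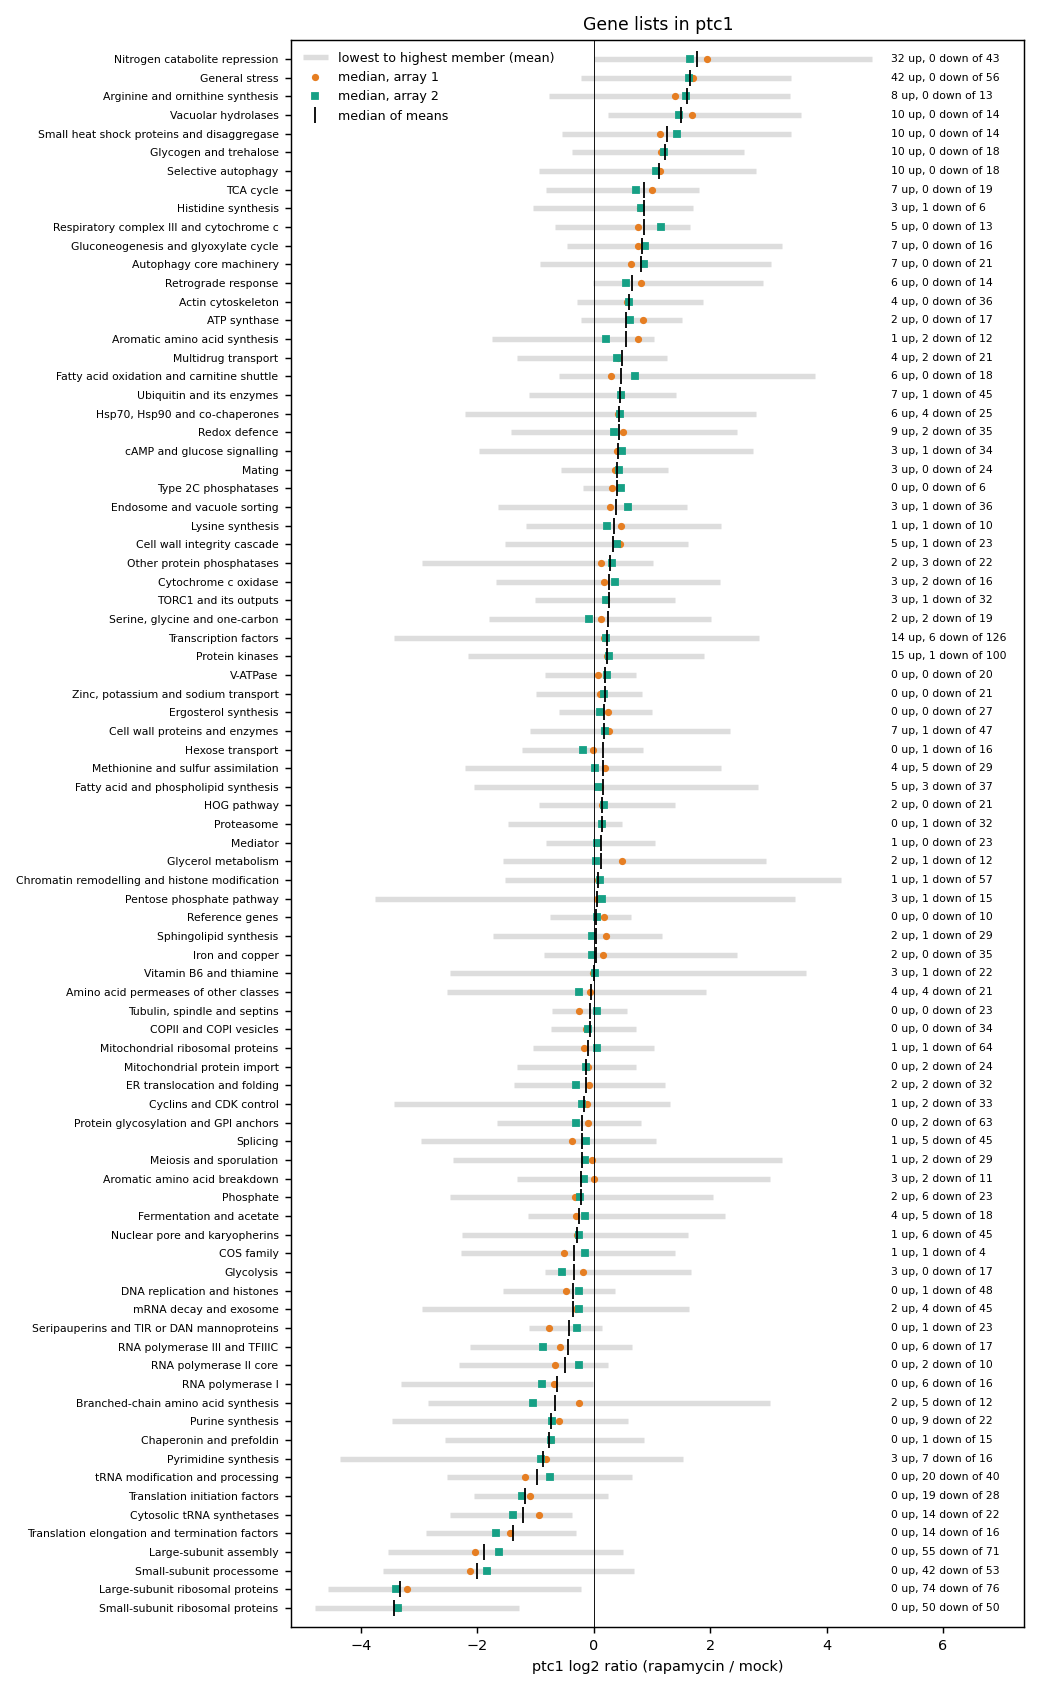
Median log2 ratio of rapamycin over mock (x axis) of 84 gene lists in ptc1 (y axis), for array 1 (circles), array 2 (squares) and the mean of the arrays (bars); grey lines span the lowest to the highest member. Counts at the right give the members past the 2-fold rule, from 32 of 43 for nitrogen catabolite repression at the top to 50 of 50 lower for small-subunit ribosomal proteins at the bottom.

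Stress and storage genes rose together. Of 56 general stress genes 42 rose and none fell, with a median of 1.65 that was 1.70 on array 1 and 1.64 on array 2. HSP26, a small heat shock protein, read 3.52 and 3.25, and HSP12, a membrane-stabilising stress protein, read 2.96 and 3.63. Small heat shock proteins and the disaggregase had 10 of 14 higher, with HSP78 at 2.47 and 2.67 and HSP104 at 2.0 and 2.48. The Hsp70 and Hsp90 group divided, with 6 of 25 higher and 4 lower. Its risers included the inducible SSE2 (2.87 and 2.70), SSA3 (1.83 and 1.09) and SSA4 (1.04 and 1.49), and its fallers SSB2 (−1.58 and −2.84), SSZ1 (−1.31 and −1.60) and ZUO1 (−1.38 and −1.04) are chaperones of the ribosome. Chaperonin and prefoldin genes had 1 call in 15, the prefoldin subunit PAC10 at −2.87 and −2.23, yet a median of −0.78.

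Glycogen and trehalose genes had 10 of 18 higher and none lower (median 1.23). GLC3, the glycogen branching enzyme, read 2.53 and 2.64, GDB1, the debranching enzyme, 2.57 and 2.60, and GSY2, the main glycogen synthase, 1.66 and 1.61, so that enzymes of synthesis and of breakdown rose alike. Redox defence had 9 of 35 higher and 2 lower, with the glutathione transferase GTT1 at 2.44 and 2.48 and the sulfiredoxin SRX1 at 2.22 and 2.20, while the iron-binding glutaredoxin GRX4 read −1.42 on both arrays.

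Self-digestion genes rose in part. Of 21 core autophagy genes 7 rose and none fell (median 0.81), led by ATG8, the ubiquitin-like protein of the autophagosome membrane, at 2.80 and 3.29 and ATG29, of the scaffold for its assembly, at 2.20 and 2.17. Selective autophagy had 10 of 18 higher (median 1.13), including the mitophagy gene ATG33 at 2.36 and 2.04 and the nuclear envelope receptor ATG39 at 1.31 and 1.87. Of 14 vacuolar hydrolase genes 10 rose (median 1.5), with CPS1, carboxypeptidase S, at 3.74 and 3.38, the aminopeptidase APE1 at 3.67 and 2.71 and the protease PRB1 at 2.01 and 1.79. The V-ATPase, which acidifies the same organelle, had no call in 20 genes and a median of 0.19. The proteasome had 1 call in 32, SCL1 at −1.56 and −1.38, and a median of 0.14. Among 45 genes of ubiquitin and its enzymes 7 rose (15.6%, against 10.6% of all genes) and 1 fell. The risers included the arrestin-like adaptors ECM21 (1.08 and 1.5) and ALY1 (0.98 and 1.27) and the ubiquitin gene UBI4 (0.78 and 1.29). Of 36 genes for endosome and vacuole sorting 3 rose, a share of 8.33% that is below that of all genes. They were led by the syntaxin PEP12 at 1.66 and 1.56, and PEP5 fell with −1.54 and −1.74.

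Carbon metabolism shifted in its outer branches. Glycolysis had 3 risers of 17 (17.6%, against 10.6% of all genes), GLK1, PYK2 and HXK1, and a median of −0.34. The TCA cycle had 7 of 19 higher and none lower, with the citrate synthases CIT1 at 1.65 and 1.90 and CIT3 at 2.57 and 1.04. Gluconeogenesis and the glyoxylate cycle had 7 of 16 higher, including the peroxisomal citrate synthase CIT2 at 2.87 and 2.94, pyruvate carboxylase PYC1 at 2.58 and 2.66 and the activator SIP4 at 2.60 and 1.72. Fatty acid oxidation and the carnitine shuttle had 6 of 18 higher, with PXA2, of the peroxisomal fatty acid importer, at 1.87 and 2.07 and the thiolase POT1 at 1.30 and 1.13. Complex III and cytochrome c had 5 of 13 higher (median 0.86). ATP synthase had 2 of 17 higher (11.8%, near the 10.6% of all genes), which were its regulators STF2 and INH1. Cytochrome c oxidase had 3 of 16 higher (18.8%) and 2 lower (12.5%, near the 12.4% of all genes). The 2 fallers SHY1 (−2.09 and −1.27) and COX14 (−1.11 and −0.89) are assembly factors. Hexose transporters had 1 call in 16, HXT2 at −0.92 and −1.53.

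**Figure D4:**
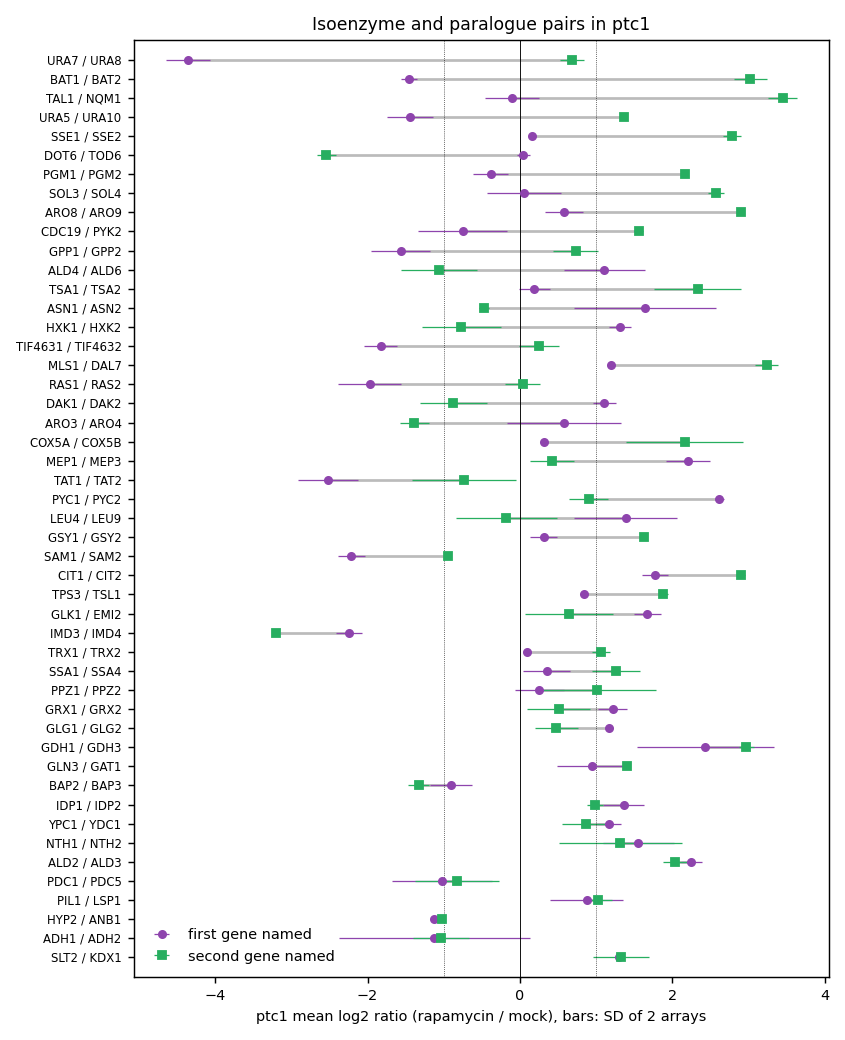
Mean log2 ratio of rapamycin over mock in ptc1 (x axis, bars are the SD of 2 arrays) for isoenzyme and paralogue pairs with a member past 1 in size, 1 such pair left out, ordered by the gap between members; dotted lines mark −1 and 1. URA7 and URA8 lie furthest apart and SLT2 and KDX1 closest.

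Isoenzymes and other paralogues were read side by side. Of 82 pairs listed from general knowledge of yeast enzymes, 75 had both genes measured. In 37 of these 1 gene passed the threshold, in 9 both passed in the same direction, in 3 they passed in opposite directions and in 26 neither passed. The pairs with opposite calls were BAT1, the mitochondrial branched-chain transaminase, at −1.45 ± 0.11, with BAT2, the cytosolic one, at 3.02 ± 0.22; URA5, the main orotate phosphoribosyltransferase, at −1.44 ± 0.31, with URA10, the minor one, at 1.37 ± 0.04; and the aldehyde dehydrogenases ALD4, mitochondrial, at 1.1 ± 0.53, with ALD6, cytosolic, at −1.06 ± 0.49. The widest gap was that of the CTP synthases, with URA8 at 0.79 and 0.57 where URA7 was the fourth deepest fall. Sugar metabolism held several pairs with a riser beside a gene that had no call. Hexokinase HXK1 read 1.21 and 1.42 and HXK2 −0.41 and −1.14, and pyruvate kinase PYK2 read 1.60 and 1.52 and CDC19 −0.75 ± 0.59. Phosphoglucomutase PGM2 stood at 2.17 ± 0.01 and PGM1 at −0.39 ± 0.23, and transaldolase NQM1 at 3.45 ± 0.19 and TAL1 at −0.10 ± 0.35.

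Other pairs with a single call had regulatory genes as members. RAS1 fell with −1.68 and −2.27 while RAS2, the other RAS GTPase, had a mean of 0.03. TOD6 fell while its paralogue DOT6 had a mean of 0.05. The eIF4G genes TIF4631 and TIF4632 stood at −1.83 ± 0.21 and 0.25 ± 0.26, and the ammonium permeases MEP1 and MEP3 at 2.21 ± 0.29 and 0.42 ± 0.29. The calcineurin catalytic subunits CMP2 and CNA1 were read from the phosphatase list and are outside the listed pairs. Both had a call, in opposite directions, at 1.00 and −1.47. Among the 9 pairs that moved together were the citrate synthases CIT1 and CIT2, the trehalases NTH1 and NTH2 and the kinases SLT2 and KDX1. Copies of similar sequence may share signal on the array, so the gaps are uncertain.

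Of 126 transcription factor genes 14 rose (11.1%, against 10.6% of all genes) and 6 fell (4.76%, against 12.4%), with a median of 0.23. CUP2, the copper-responsive activator, read 3.02 and 2.66, NRG1, a glucose-dependent repressor, 1.90 and 1.37, and FKH1, a forkhead factor of the cell cycle, fell with −3.65 and −3.21. Of 100 protein kinase genes 15 rose (15%) and 1 fell, the meiotic kinase MEK1 at −2.12 and −2.20. The kinase risers included YAK1, a kinase that restrains growth, at 1.65 and 1.22, RIM11, a glycogen synthase kinase homologue, at 1.73 and 1.33, and NPR1, which TORC1 restrains, at 1.23 on both arrays. PDE1, the low-affinity cAMP phosphodiesterase, rose with 2.95 and 2.53. TORC1 and its outputs had 3 of 32 higher (9.38%, near the 10.6% of all genes) and 1 lower. Of these 4, 2 rested mainly on 1 array, LST8 at 1.56 and 0.44 and PPH3 at −0.21 and −1.81.

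Pathways on which Ptc1 acts were read in the ptc1 strain. The 6 measured type 2C phosphatase genes had no call and a median of 0.39. The HOG pathway had 2 risers of 21 (9.52%, against 10.6% of all genes) and a median of 0.15. Its risers were the tyrosine phosphatase PTP2, with 1.40 on both arrays, and the kinase RCK2, at 1.18 and 0.84. The cell wall integrity cascade had 5 of 23 higher (21.7%), among them its kinase SLT2 at 1.32 and 1.29 and the exchange factor ROM1 at 1.55 and 1.69. Its sensor MID2 fell with −1.33 and −1.73. Cell wall proteins and enzymes had 7 of 47 higher (14.9%) and 1 lower. The risers included PST1, a wall-stress protein, at 2.77 and 1.51 and PIR3 at 1.93 and 1.49. Over genes on all 4 arrays, the median of the cascade was 0.33 in ptc1 and 0.48 in the wild type. That of cell wall proteins and enzymes was 0.17 and 0.39, so neither list had a higher median in ptc1. The HOG pathway had medians of 0.21 in ptc1 and 0.04 in the wild type. Of 22 other phosphatase genes 2 rose (9.09%) and 3 fell (13.6%, against 12.4% of all genes). Among the fallers PPT1, a phosphatase with tetratricopeptide repeats, read −2.92 and −2.98, a mean of −2.95 ± 0.04.

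Phosphate genes fell in 6 of 23 members and rose in 2. The fallers included the secreted acid phosphatases PHO3 (−1.70 and −3.25), PHO5 (−2.25 and −1.82), PHO11 (−1.70 and −2.01) and PHO12 (−1.82 and −1.93), which are similar in sequence, so that their single values are uncertain. The risers were PHM8, a nucleotidase, at 1.70 and 2.39 and the vacuolar phosphatase PHO8 at 1.70 and 0.68. Iron and copper genes had 2 risers of 35, the haem oxygenase HMX1 at 2.38 and 2.55 and the iron-sulfur scaffold ISU1 at 0.93 and 1.11.

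Lipid and secretory lists stand here beside the 22.9% of all genes that had a call. Ergosterol synthesis had no call in 27 genes (median 0.18), COPII and COPI vesicle coats none in 34 (median −0.06), and tubulin, spindle and septin genes none in 23. Of 63 genes for glycosylation and GPI anchors 2 fell, the phosphomannomutase SEC53 at −2.02 and −1.31 and ALG5 at −0.90 and −1.41. Of 37 genes for fatty acids and phospholipids 5 rose and 3 fell. OPI3, a phospholipid methyltransferase of phosphatidylcholine synthesis, read 3.17 and 2.47, and the elongases ELO3 and ELO2 read −2.06 ± 0.19 and −1.66 ± 0.16. Actin cytoskeleton genes had 4 risers of 36 (11.1%, against 10.6% of all genes), led by YSC84 at 1.80 and 1.97. They had no faller and a median of 0.60. Cyclins and their control had 1 riser of 33, PCL5, and 2 fallers, FKH1 and CLB6, and DNA replication and histone genes 1 faller of 48, RNR1, the large subunit of ribonucleotide reductase, at −0.99 and −2.13. The 10 reference genes had no call and a median of 0.04. Together the 84 lists held 2252 measured genes, and 296 of the 551 risers and 236 of the 647 fallers were in none of them.

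The ptc1 arrays also measured 571 genes that lacked a value on at least 1 wild-type array, 326 of them on both. Of these 571, 40 rose (7.01%) and 67 fell (11.7%), and their arrays had a median SD of 0.35 and r = 0.796. The largest rises were in DAL5, PUT1 and DAL7, given above. HMX1 followed, then DUR12, the urea amidolyase, at 2.36 and 2.51, ARG7, which makes ornithine in mitochondria, at 2.55 and 2.04, SIP4, and VVS1 at 1.82 and 2.31. The trehalose synthase genes TPS1 (1.47 and 1.67) and TSL1 (1.92 and 1.84) and the autophagy activating enzyme ATG7 (1.79 and 1.29) were also in this set. Its deepest falls were RPL27A at −3.95 and −3.65, RPL32 at −3.68 and −3.90 and RPS11B at −3.71 and −3.26. Others were YEF3, SAS10, a processome protein, at −2.85 and −2.26, and REA1, the large ATPase of large-subunit assembly, at −2.80 and −1.83. COS6, of a subtelomeric family of similar genes, read −2.42 and −2.15.

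Among genes on all 4 arrays 511 rose in ptc1, and 71 of them did not pass the rule in the wild type. Of those 71, 70 had a positive wild-type mean, with a median of 0.84 that lies just under the threshold. Likewise 38 of 580 fallers did not pass in the wild type, where 37 had a negative mean and the median was −0.90. The strain difference was counted where it was at least 1 in size with all 4 array-to-array differences of the same sign, which held for 1.91% of the 4650 genes. It held for 2 of the 71, HSP30 and COS111, and for none of the 38. COS111 read 1.47 and 1.33 in ptc1 and −0.30 and 0.37 in the wild type. Among the 30 largest rises of ptc1, a difference was counted for ARO5, HSP12, TMT1, ARG4, CPS1, APE1, FMP23 and DDR2. All of them rose less in ptc1, with differences from −1.84 for ARO5 to −1.05 for DDR2. For the others of the 30 with a value on all 4 arrays none was counted. No gene that rose in ptc1 fell in the wild type, or the reverse.

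Identifiers that have no entry in the name table of the reference genome were counted separately. Of 262 such open reading frames on both ptc1 arrays 58 fell (22.1%) and 11 rose (4.20%). Systematic names number the frames along a chromosome arm, so the frames on either side could be found for 216. Of the 47 numbered frames that fell, 23 (48.9%) had a named neighbour that also fell, and in 10 a neighbour was a ribosomal protein gene. Of the 160 with no call 30 (18.8%) had a fallen neighbour. Of the 9 that rose, 7 had a neighbour that rose, against 19 (11.9%) of those with no call. YLL044W, beside RPL8B, read −3.42 and −3.85, and YDR417C, beside RPL12B, −2.96 and −3.64. YNL057W rose with 2.76 and 2.46, and YOR121C, beside GCY1, with 2.49 and 2.38. Overlap with the neighbour and the strand of the probes were not analysed here, so a signal of the frame and one of its neighbour cannot be told apart.

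Named genes next to a ribosomal protein gene, themselves outside the lists for ribosomal proteins, ribosome assembly, polymerases I and III and translation factors, fell in 20 of 179 cases (11.2%), and their median was −0.10. The remaining genes outside those lists fell in 6.80% of 4454 and had a median of 0.15. The fallen neighbours included the tRNA synthetase genes YHR020W, SES1 and FRS1. With the tRNA synthetase and tRNA modification lists left out too, 16 of 174 neighbours fell (9.20%), against 6.21% of 4397 other genes. The other fallen neighbours included RKI1, which is transcribed divergently from RPS7A, and SPC24, a kinetochore protein next to ASC1, at −2.57 and −2.76. FPR4, a nuclear proline isomerase next to RPL6B, read −2.46 and −1.87. SYO1, BMT6 and POL5 also fell, with means of −2.64, −1.80 and −1.50. The lists may not hold every gene for ribosome production, and whether place accounts for the higher share was not tested.

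**Figure D5:**
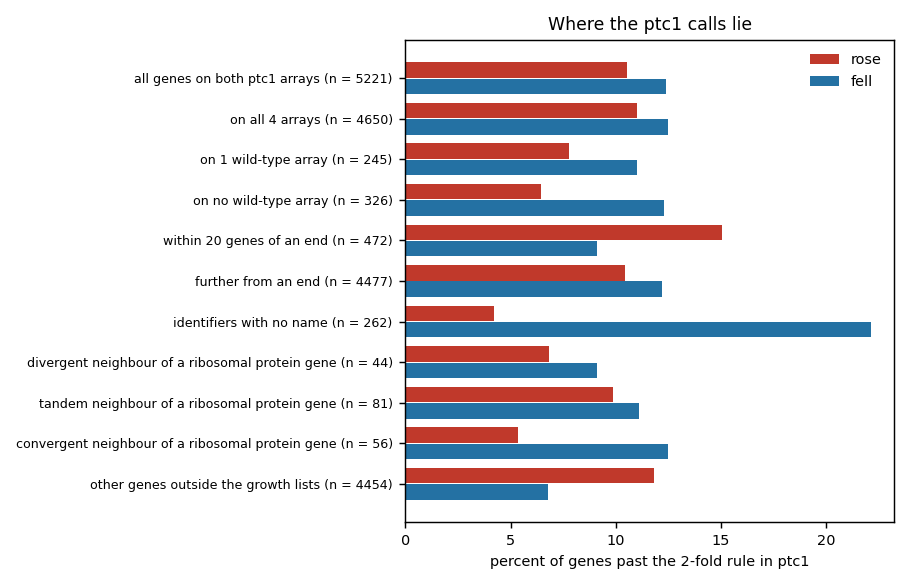
Percent of genes that rose (red) or fell (blue) in ptc1 by the 2-fold rule (x axis), for groups of genes set by array coverage, place on the chromosome, naming and neighbours (y axis, with the number of genes). Unnamed identifiers have a share of falls of 22.1%, and 15% of genes within 20 of a chromosome end rose.

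Genes were also placed by their distance from a chromosome end. Within 20 genes of a chromosome end 71 of 472 genes rose (15%) and 43 fell (9.11%), against 10.5% and 12.2% of the 4477 genes further in. Within 10 genes of an end the shares were 16.1% and 9.48% of 211. Risers near an end came from several functions. They included DAL5, DAL3, DAL7, TMT1, MSC1, GDH3, a glutamate dehydrogenase, at 3.05 and 2.90, and HSP31, a stress-induced glyoxalase, at 2.85 and 2.37. The seripauperins and TIR or DAN mannoproteins, which also lie largely near chromosome ends, had 1 faller and no riser among 23, with a median of −0.43.

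Neighbouring genes were set side by side by orientation. Across 1046 divergent pairs with both genes measured, Spearman's rho of the means was 0.174, against 0.072 for 1962 tandem pairs and 0.049 for 1094 convergent pairs. It was 0.340 for 33 pairs whose frames overlap and whose signals may not be separable. These values describe pairs read on the same arrays. Both genes rose in 19 divergent pairs, both fell in 33, and they passed in opposite directions in 20. These counts were 34, 28 and 51 for tandem pairs and 9, 15 and 23 for convergent pairs. Taken singly, 10.6% of all genes rose and 12.4% fell. Divergent pairs that moved together included SNO1 with SNZ1, which encode partners in vitamin B6 synthesis, at 1.43 and 3.64 in the mean. Others were RPL24A with RPL30, at −3.64 and −3.46, and the glutamate synthase GLT1 with UGA3, at 1.23 and 1.84. Divergent pairs that moved apart included UBC5, a ubiquitin-conjugating enzyme, at 1.41, with MAK21 at −3.28. Others were ATG33 at 2.20 with ILV5 at −1.85, and PHM8 at 2.05 with ARB1, a ribosome export ATPase, at −1.59.

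Genes beside PTC1 itself stayed within the threshold apart from MCD1, a cohesin subunit, which read −0.69 and −1.33. RPT2 and MED2 had means of 0.21 and 0.04, APC11 of 0.29 and ATP16 of 0.56, and each of these 4 had opposite signs on the arrays.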

How the data were processed

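Spots under 120 µm in diameter or under 150 units in Cy3 and Cy5 were dropped by the authors, per the labels, and intensities were scaled by the ratio of medians. The deposited values are log ratios with 3 decimals, taken here as log2. Log base, direction, scanner and probe sequences: not given in the sources used here. The titles and dye fields of the ptc1 arrays name opposite dyes, which leaves the mean of both orientations unaltered. All columns were kept as deposited, with no sign turned. RNA came from 30 ml cultures, and 8 µg was labelled.

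Of 6212 rows, 5662 were named by locus tag and 52 by synonym through the RefSeq table of assembly R64, and 498 kept their identifier. Averaging rows of a gene removed 36. Means, SDs, calls and medians were computed with Python 3.11.15, pandas 2.3.3, numpy 2.4.6, scipy 1.17.1 and matplotlib 3.10.9. The rule was run on simulated arrays with independent noise set from the SD of the arrays. That simulation holds no spread between cultures, so it does not show how the calls would repeat in new cultures. Intensities were not used here, and precision is limited by the number of arrays. Genes were named by rule: the 30 largest rises and falls, up to 5 members past the rule per list and direction, any member of small lists, the 15 largest among genes missing from wild-type arrays, the 10 widest array gaps, and pairs. Unnamed identifiers and the neighbours of ribosomal protein genes were taken up after their values were seen, as were a few listed members beyond the rule. Members, lists and pairs were chosen with earlier results of these data known. Alternatives were each array alone, other thresholds, centring and scaling. Promoter and protein sequences were not used here. Some items are not reported here.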

Additional observations from a re-analysis of the deposited data

Results flagged for a closer look

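HSP30, which encodes a plasma membrane heat shock protein, read 1.11 and 1.25 on the ptc1 arrays and −0.02 and −0.24 on the wild-type arrays. Both ptc1 values were positive and both wild-type values negative, which is why it is listed here. Its ptc1 mean was 1.18 ± 0.10, its wild-type mean −0.13 ± 0.16, and the difference 1.31 ± 0.19. The difference was not tested, since each strain had 1 RNA pair.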

How the results depend on the processing

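With 1 array in place of both, between 617 and 645 genes were higher in ptc1 and between 662 and 720 lower. Of the 551 risers and 647 fallers, 461 and 594 were also called without array 1, and 472 and 566 without array 2. Among genes missing from a wild-type array, the counts were 42 to 64 higher and 69 to 74 lower, with 64 given without array 1. A mean of at least 1.5 left 225 higher and 404 lower, and 14 and 37 among genes missing from a wild-type array. With each array required to pass 1, 20 of those genes were higher. Centring each array gave 497 higher and 680 lower, equal scaling 551 and 648, and rows not averaged 553 and 649. A gene with a call could not change sign when an array was left out, since the call requires the same sign on both. Centring and scaling also moved values too little to turn the sign of a called gene. Centring did turn the sign of 11 of 683 named genes and 5 of 84 list medians, all at most 0.0535 in size. The tRNA lists were left out of the count beside ribosomal protein genes as an alternative chosen after seeing the data. The rank correlation of the arrays was 0.749. Centring moved a named gene or list median by at most 0.056, and leaving out an array moved a gene by at most 1.09 and a list median by at most 0.419. A comparison of promoter motifs was planned and not run, since promoter sequences were not used here. No paired analysis was possible because each strain had 1 RNA pair and array numbers were given in accession order. Signal over background was not used here.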
